A study of Mus musculus with 2 samples.

Results

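The cells described here are 150 glutamatergic neurons of the mouse dorsal telencephalon at embryonic day (E) 14.5 that carried RNA of *Nxph4* or *Nr4a2*, genes used as markers of the subplate. They were chosen by their own counts of unique molecular identifiers (UMIs, each standing for 1 captured RNA molecule). A cell had to hold at least 3 UMIs of *Neurod2* and *Neurod6* together, which mark cortical projection neurons, and at least 3 UMIs of *Nxph4* and *Nr4a2* together. It could hold at most 1 UMI of *Eomes*, at most 2 of *Neurod1*, at most 1 of *Tfap2d*, at most 1 of *Trp73*, *Lhx1* and *Lhx5* together, and at most 1 of *Gad1*, *Gad2* and *Dlx6os1* together. These limits left out intermediate progenitors, newborn neurons, *Tfap2d* neurons, Cajal-Retzius cells and GABAergic cells. Of 12936 cells kept from 15033 deposited, 71 members came from replicate 1 and 79 from replicate 3.

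The subplate is the deepest neuronal layer of the fetal cortex and forms among the first. Its neurons receive early thalamic input, send pioneer axons out of the cortex, and make transient synapses before many of them die, while some persist as layer 6b. *Nxph4* encodes a secreted neurexophilin that binds neurexins, *Nr4a2* an orphan nuclear receptor, and *Tbr1* a T-box factor of early born deep layer neurons. In mm10 coordinates (RefSeq annotation of GRCm38.p6) *Nxph4* lies at chr10:127525473-127534559, *Nr4a2* at chr2:57106830-57124003 and *Tbr1* at chr2:61802863-61814114. *Nr4a2* is also a known marker of claustrum and of lateral cortical neurons.

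The data were 2 droplet-based single cell RNA sequencing (scRNA-seq) libraries, labelled as WT replicates 1 and 3, from embryos that served as controls in an *Eomes*-Cre line. The sample titles also carry the name EoMltt3, and the study's methods give C57BL/6J mice. The labels name the tissue as brain hemispheres, and their protocol as dorsal telencephalon. The libraries held 64182006 and 93295807 UMIs over 6163 and 8870 cell barcodes, of which 23 barcode sequences occurred in both libraries and 2 of those belonged to members. Both libraries belong to 1 group. The study's methods have each sample loaded separately and count its replicates of this experiment in embryos, but the labels do not tie each of these libraries to its own embryo, so p-values measure only the spread between these samples, which may be technical. Cell classes were therefore compared within the libraries, by summing UMIs per class and replicate.

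Members made up 1.30% of the kept cells of replicate 1 (1.03 to 1.64, Wilson interval at 95%) and 1.06% of those of replicate 3 (0.848 to 1.31). Among cells that passed the same gates apart from the *Nxph4* and *Nr4a2* limit, they made up 3.35% (2.66 to 4.2) and 2.83% (2.27 to 3.51). These intervals overlapped between the replicates and cover counting error only. The rest of those cells served as comparison classes. Neurons with at least 2 UMIs of *Hs3st4*, a heparan sulfate sulfotransferase gene used here as a corticothalamic marker, numbered 555 and 644 ("*Hs3st4* neurons"). Neurons with at most 1 such UMI numbered 1496 and 2072 ("other projection neurons"). A further class, newborn neurons (317 and 380 cells), held at least 3 UMIs of *Neurod1*. All 3 classes held at most 2 UMIs of *Nxph4* and *Nr4a2* together. Members were deeper than these classes, with a median of 14626 and 15399 UMIs per cell, against 12990 and 13379 in *Hs3st4* neurons, 11506 and 10333 in other projection neurons, and 12184 and 12018.5 in newborn neurons.

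The members owed their place mainly to *Nr4a2*. *Nr4a2* without any *Nxph4* UMI carried 43 of 71 and 36 of 79 members, *Nxph4* without any *Nr4a2* UMI carried 10 and 14, and 18 and 29 held UMIs of both. *Nr4a2* ranged from 0 to 32 UMIs per member in replicate 1, with a median of 4, and from 0 to 14 in replicate 3, with a median of 3. *Nxph4* ranged from 0 to 4 (median 0) and from 0 to 5 (median 1). The threshold cut through a continuous range, since 22 and 34 members held exactly 3 UMIs of both genes together while 75 and 138 comparison cells held exactly 2. At 3 UMIs, just inside the limit, *Tbr1* stood at 199.7 and 245 CPM (a gene's UMIs per 1000000 UMIs summed over the cells of a class in 1 replicate). At 2 UMIs, just outside it, the level was 130.1 and 148 CPM. The 15 and 17 members with exactly 4 UMIs had 145 and 166 CPM, closer to the cells at 2 UMIs than to those at 3. These values describe the choice of cells and were not tested.

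**Figure D1:**
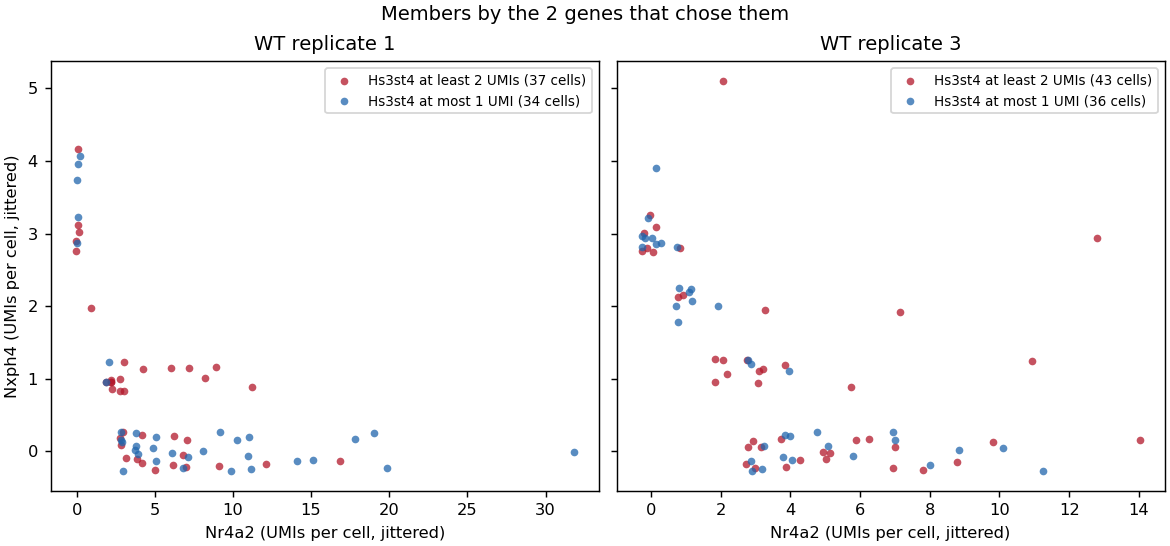
Each point is 1 member, placed by its UMIs of *Nr4a2* (horizontal) and *Nxph4* (vertical) with a small random shift, in replicate 1 (71 cells) and replicate 3 (79 cells). Red points held at least 2 UMIs of *Hs3st4* and blue points at most 1. At *Nxph4* of 0 lie 43 of 71 and 36 of 79 points, and both colours occur along each axis.

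*Hs3st4*, which the choice of members did not use, split them into 2 parts of similar size. It was at 0 in 33 and 34 members and at 2 UMIs or more in 37 and 43, while 1 and 2 members held a single UMI. Its summed level was 1359 and 1002 CPM in members, against 1733 and 1239 CPM in *Hs3st4* neurons and 3.92 and 3.92 CPM in other projection neurons. At least 2 UMIs of *Hs3st4* were found in 16 of 18 and 18 of 29 members with both *Nxph4* and *Nr4a2*, in 5 of 10 and 6 of 14 with *Nxph4* alone, and in 16 of 43 and 19 of 36 with *Nr4a2* alone. Several genes below are therefore also given for the members with *Hs3st4* and those without it. The split was made after these values had been seen, and the parts were not tested against each other.

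The label subplate-like held for the members only in part. *Tbr1* stood at 202 and 229 CPM in members. The levels were 202 and 241 CPM in *Hs3st4* neurons, 93.3 and 110.3 in other projection neurons, and 73.8 and 85.4 in newborn neurons. Members did not overlap the latter 2 classes and lay within the range of *Hs3st4* neurons. With each cell thinned to 5000 UMIs, *Tbr1* had a UMI in 70.0% of members of replicate 1 (58.5 to 79.5) and 61.5% of replicate 3 (50.4 to 71.6). The shares were 61.0% and 66.6% in *Hs3st4* neurons, 34.3% and 40.9% in other projection neurons, and 2.50% and 1.64% in radial glia, which should lack it. One member of each replicate was too shallow to be thinned, and without thinning the members' shares were 81.7% and 89.9%. *Ccn2*, *Cplx3* and *Moxd1*, classical markers of the later subplate and layer 6b, had 0 UMIs in all members, which allows up to 4.23% and 3.80% of cells with a UMI and up to 2.79 and 2.25 CPM. They were close to 0 in the other neurons too, at most 0.572 CPM for *Ccn2* in any comparison class. *Lpar1*, a lysophosphatidic acid receptor gene, stood at 6.5 and 19.5 CPM in members and 4.07 and 14.6 CPM in *Hs3st4* neurons, with radial glia at 217 and 186 CPM. *Tmem163*, a zinc transporter gene, stood at 35.3 and 27.8 CPM in members, above all 3 classes (at most 15 CPM) and near radial glia (30.4 and 31.6 CPM), and 1 member gave 39.5% of its UMIs in replicate 1. Because *Tbr1* was no higher than in *Hs3st4* neurons, the cells are called *Nxph4*/*Nr4a2* neurons here. The classical late markers were at or near 0 in members and comparison classes alike, so they cannot decide the name.

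The 26 listed subplate markers outside the rule, of which 5 and 4 were at 0 in members and 19 had enough counts to be tested, summed to 4737 and 3938 CPM in members with *Hs3st4* and to 1943 and 1290 CPM in members without it. *Zfpm2* alone, also a deep layer factor, gave 2007 and 1695 CPM of the former sum and 115 and 416 CPM of the latter. The sum of all 26 markers was 2122 and 2364 CPM in *Hs3st4* neurons and 670 and 739 CPM in other projection neurons. It was 1182 and 1284 CPM in newborn neurons, near the 1290 CPM of members without *Hs3st4* in replicate 3. Radial glia held 1029 and 914 CPM and GABAergic cells 953 and 923 CPM. *Kcnab1*, a potassium channel beta subunit, stood at 285 and 262 CPM in members with *Hs3st4* and 19.5 and 14.2 CPM in those without. *Pls3*, an actin bundling plastin, stood at 76.5 and 62.4 against 6.49 and 7.12 CPM. *Gabra5*, a GABA-A receptor subunit, stood at 42.3 and 49.4 against 4.33 and 0 CPM. *Nxph3*, a relative of *Nxph4*, stood at 86.2 and 79.2 against 4.33 and 5.34 CPM. Each of these 4 genes was higher in both libraries of the part with *Hs3st4* than in either library of any other class. Other listed markers did not separate the parts. *Tmem163* stood at 29.3 and 36.4 CPM with *Hs3st4* and 43.3 and 16.01 CPM without it, the cadherin gene *Cdh10* at 451 and 426 against 589 and 210 CPM, and *Unc5c*, a netrin receptor, at 327 and 229.9 against 528 and 46.3 CPM, so the parts overlapped in all 3. The part without *Hs3st4* carried *Plxna4*, a semaphorin receptor subunit, at 2073 and 1146 CPM, against 221 and 169 CPM in the part with it. *Nr2f1*, a factor of cortical area patterning, stood at 275 and 299 CPM against 102.5 and 136 CPM. *Tle4*, a corticothalamic corepressor, went the other way, at 175 and 103 CPM against 1209 and 981 CPM. *Plxna4* was not particular to the members without *Hs3st4*. It had UMIs in 73.5% and 91.7% of them and in 83.2% and 83.9% of other projection neurons.

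**Figure D2:**
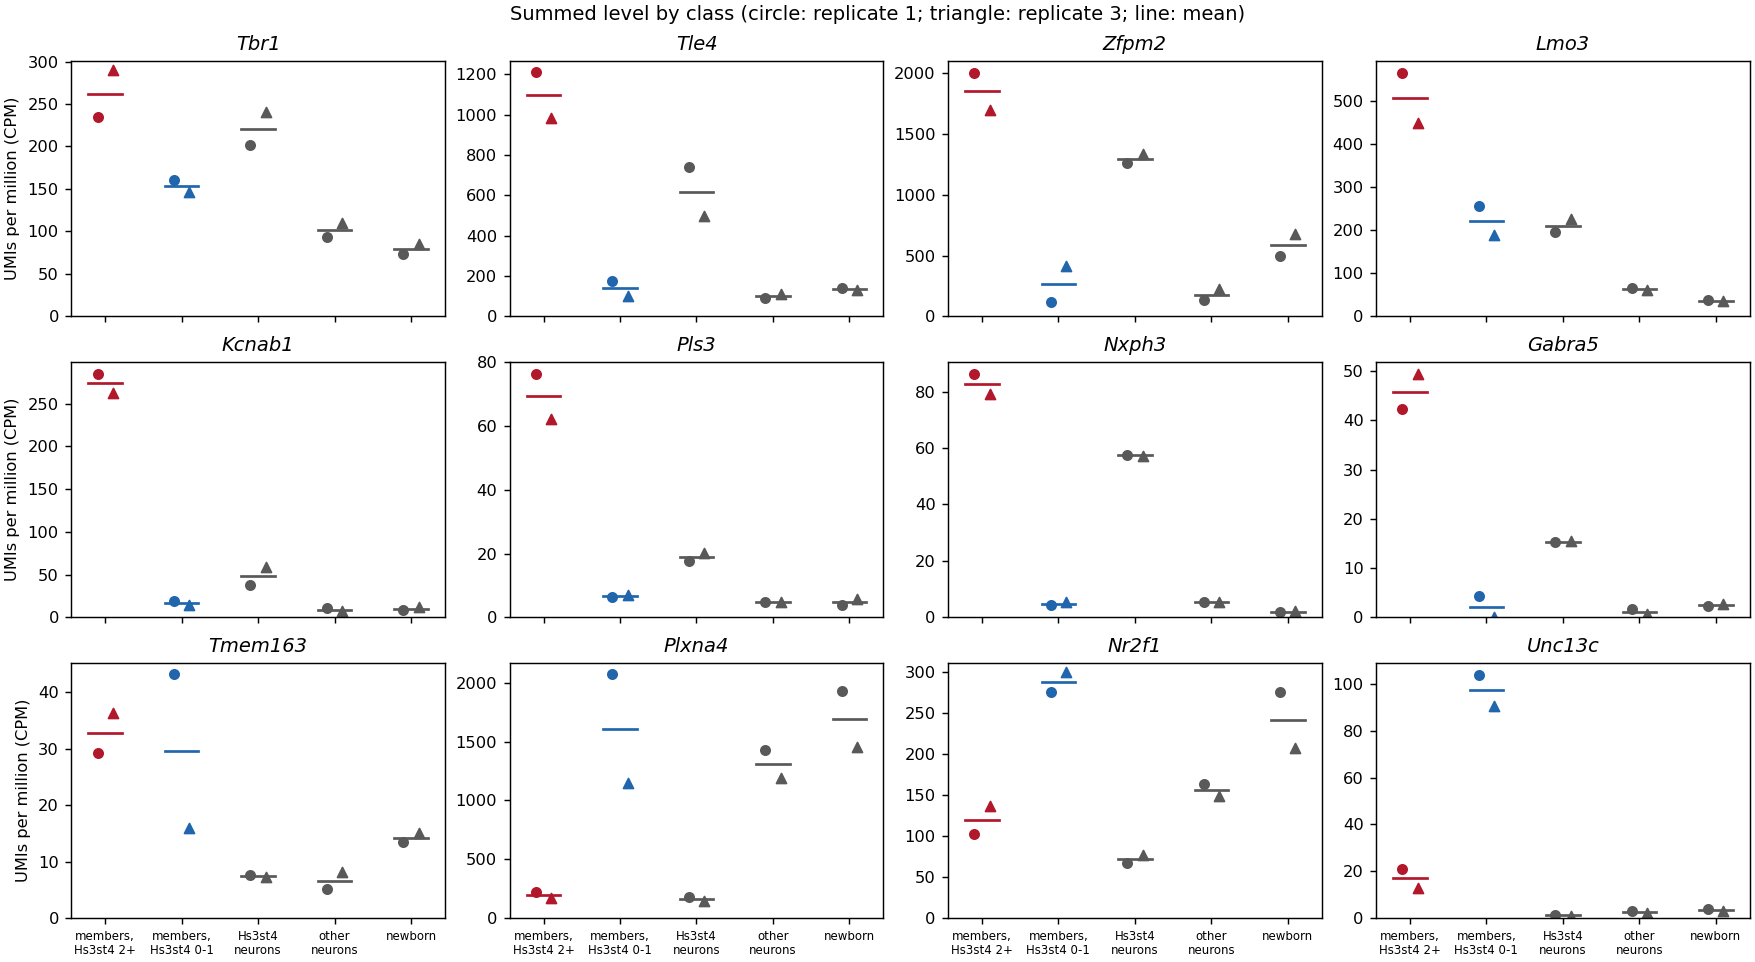
Each panel plots the summed level of 1 gene in CPM (vertical, from 0) in members with at least 2 UMIs of *Hs3st4* (red), members with at most 1 (blue) and the 3 comparison classes (grey), for replicate 1 (circle) and replicate 3 (triangle), with a line at their mean. *Kcnab1*, *Pls3*, *Nxph3* and *Gabra5* are high in the red part, *Plxna4* and *Nr2f1* are higher in the blue part than in the red part, and *Unc13c* is above the 3 grey classes in both parts.

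Nearest neighbours in expression space, computed without the gate genes, showed the same arrangement. Among the 15 nearest neighbours of a member, 24.2% and 14.8% were members, against a share of 2.91% and 2.49% of all cells in the 4 classes. For members with *Hs3st4*, 30.8% and 20.8% of neighbours were members and 59.5% and 74.0% were *Hs3st4* neurons. For members without it, 17.1% and 7.59% of neighbours were members and 60.6% and 62.2% were other projection neurons. *Hs3st4* neurons had 4.30% and 4.82% members among their own neighbours. In both libraries, members thus lay closer to each other than their number gives, while each part lay mostly among the comparison class with its own *Hs3st4* state.

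**Figure D3:**
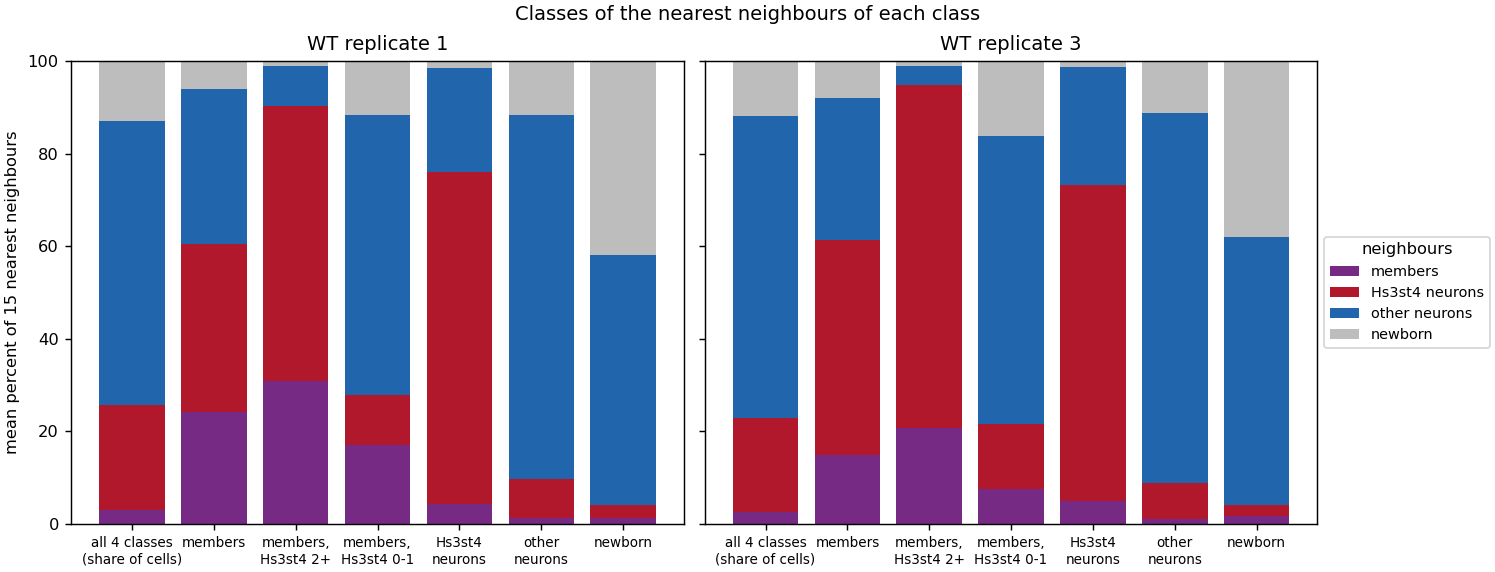
Stacked bars give the mean percent of the 15 nearest neighbours (vertical, 0 to 100) that belong to members (purple), *Hs3st4* neurons (red), other projection neurons (blue) and newborn neurons (grey), for cells of each class named below the bar and for all 4 classes as shares of cells, in replicates 1 and 3. Purple reaches 24.2% and 14.8% in the members' bars, and the 2 parts of the members are filled mainly by red and by blue.

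The comparison with *Hs3st4* neurons asked how members differ from the corticothalamic-marked cells. Tested with edgeR (quasi-likelihood, p adjusted by Benjamini-Hochberg across 13587 genes), 19 of 13578 genes outside the gates were higher in members and 9 lower, which is 0.14% and 0.0663% of the genes tested. With the library as a block, which pairs the sums of 1 replicate, 146 were higher and 113 lower (1.08% and 0.832%), and all 28 first calls were among them. All 28 had the same direction in both replicates. The median log2 fold change of all genes was -0.01.

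*Unc13c*, a vesicle priming gene of the Munc13 family, changed by the largest fold among the named genes. It stood at 56.7 and 45.8 CPM in members and at 1.31 and 1.06 CPM in *Hs3st4* neurons (log2 fold change 5.14 ± 0.31 SE, adjusted p = 0.000829). *Ndst3*, a heparan sulfate sulfotransferase, stood at 91.0 and 84.1 against 16.9 and 15.3 CPM (2.37 ± 0.14, adjusted p = 0.000829). The synapsin gene *Syn2* stood at 164 and 193 against 30.7 and 55.5 CPM (1.99 ± 0.25, adjusted p = 0.0300). *Tmem163* rose by a log2 fold of 1.98 ± 0.27 (adjusted p = 0.0439) and was the 1 of 19 tested subplate markers past the threshold. The list's median was 0.82. With the block 7 of the 19 passed, all higher, among them *Kcnab1*, *Pls3*, *Prss12* and *Unc5c*.

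Genes for axon guidance and for other layers were among those higher in members. *Plxna4* stood at 1016 and 581 against 181 and 147 CPM (2.23 ± 0.31, adjusted p = 0.0430). The netrin receptor gene *Unc5d* stood at 423 and 541 against 131 and 110.1 CPM (1.93 ± 0.22, adjusted p = 0.0251), and the neuropilin gene *Nrp2* rose by 1.5 ± 0.19. *Epha3*, an ephrin receptor, rose by 1.05 ± 0.11. Of 55 tested guidance and adhesion genes 4 were higher, and with the block 11 were higher and 4 lower. *Nr2f1* stood at 176 and 205 against 67.4 and 77.2 CPM (1.34 ± 0.17). The phosphatase gene *Ptprk*, the scaffold gene *Wwc1* and the zinc finger gene *Prdm8* rose by 2.34 ± 0.32, 1.33 ± 0.14 and 1.19 ± 0.14. *Slc17a6*, a vesicular glutamate transporter, and *Grin2a*, an NMDA receptor subunit, rose by 2.27 ± 0.26 and 3.54 ± 0.50. Of 15 upper layer genes *Epha3* passed, with a list median of 0.90, and with the block 5 were higher, among them *Cux1*, *Cux2* and *Lhx2*, and 1 was lower.

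Genes lower in members included corticothalamic and subcerebral genes. *Syt6*, a layer 6 synaptotagmin, stood at 30.7 and 30.03 against 98.0 and 97.7 CPM (-1.74 ± 0.19, adjusted p = 0.0231). *Fezf2*, a selector of subcerebral fate, stood at 132 and 122 against 222 and 222 CPM (-0.86 ± 0.12, adjusted p = 0.0430). The SK channel gene *Kcnn2* stood at 109.6 and 120.1 against 255 and 283 CPM (-1.28 ± 0.10, adjusted p = 0.00626). *Adamts17*, a secreted protease, *Kif26a*, a kinesin, and *Edil3*, a matrix protein, had log2 fold changes of -1.45 ± 0.18, -1.43 ± 0.20 and -1.15 ± 0.12. Of 14 deep layer factors 2 were lower, and with the block 6 were lower and *Lmo3* was higher.

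The comparison was repeated within one *Hs3st4* state. When only the 37 and 43 members with *Hs3st4* were compared with *Hs3st4* neurons, a comparison added after the data had been seen, 17 of 13445 genes were higher (0.126%) and 3 lower (0.0223%). With the block these were 143 (1.06%) and 86 (0.64%). *Plxna4* then had a log2 fold change of 0.21 ± 0.30, *Unc5d* of 0.34 ± 0.31, *Slc17a6* of 0.39 ± 0.40 and *Wwc1* of -0.28 ± 0.19, and none of the 4 passed. Of the 21 named or listed genes past the threshold with all members, 5 stayed past it, namely *Unc13c*, *Ndst3*, *Syn2*, *Crim1* and *Adamts17*. The others did not, with fewer cells in the sums, among them *Syt6*, *Fezf2*, *Kcnn2*, *Nr2f1*, *Epha3* and *Grin2a*. Of 14 deep layer factors 1 was then higher and 0 lower, and with the block 2 were higher and 4 lower. Among the 21 subplate markers tested, *Kcnab1*, *Pls3* and *Lmo3* were higher. *Kcnab1* stood at 285 and 262 CPM against 37.6 and 58.8 CPM (2.47 ± 0.24, adjusted p = 0.00987). *Pls3* stood at 76.5 and 62.4 against 17.6 and 20.3 CPM (1.82 ± 0.21, adjusted p = 0.0115), and *Lmo3*, a LIM-only factor, rose by 1.24 ± 0.17. The list's median was 1.53, beside -0.03 for all genes. With the block 9 of 21 passed, all higher, adding *Tmem163*, *Prss12*, *Cdh18*, *Cdh10*, *Unc5c* and *Sv2b*.

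Other named genes also passed in the members with *Hs3st4*. In the fixed lists 1 of 35 synaptic genes (*Syn2*) passed. *Dpp10*, an auxiliary subunit of Kv4 potassium channels, stood at 1217 and 915 CPM against 236 and 164 CPM (2.38 ± 0.31). *Galnt14* and *Csgalnact1*, which encode enzymes of O-glycan and chondroitin sulfate synthesis, rose by 2.23 ± 0.29 and 2.09 ± 0.29. The active zone gene *Rimbp2* rose by 1.60 ± 0.23, *Syn2* by 1.75 ± 0.26 and *Ndst3* by 1.63 ± 0.17. *Lingo2*, a leucine-rich repeat membrane protein, stood at 1860 and 1806 against 437 and 586 CPM (1.81 ± 0.26), and *Crim1* rose by 1.34 ± 0.16. *Unc13c* rose by 3.52 ± 0.40, on 13 and 10 UMIs from 2 and 3 cells. The 3 genes that fell were *Adamts17* (-1.5 ± 0.21), the LIM-only factor *Lmo1* (-1.28 ± 0.19) and the axonal adhesion gene *Cntn2* (-1.04 ± 0.15).

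**Figure D4:**
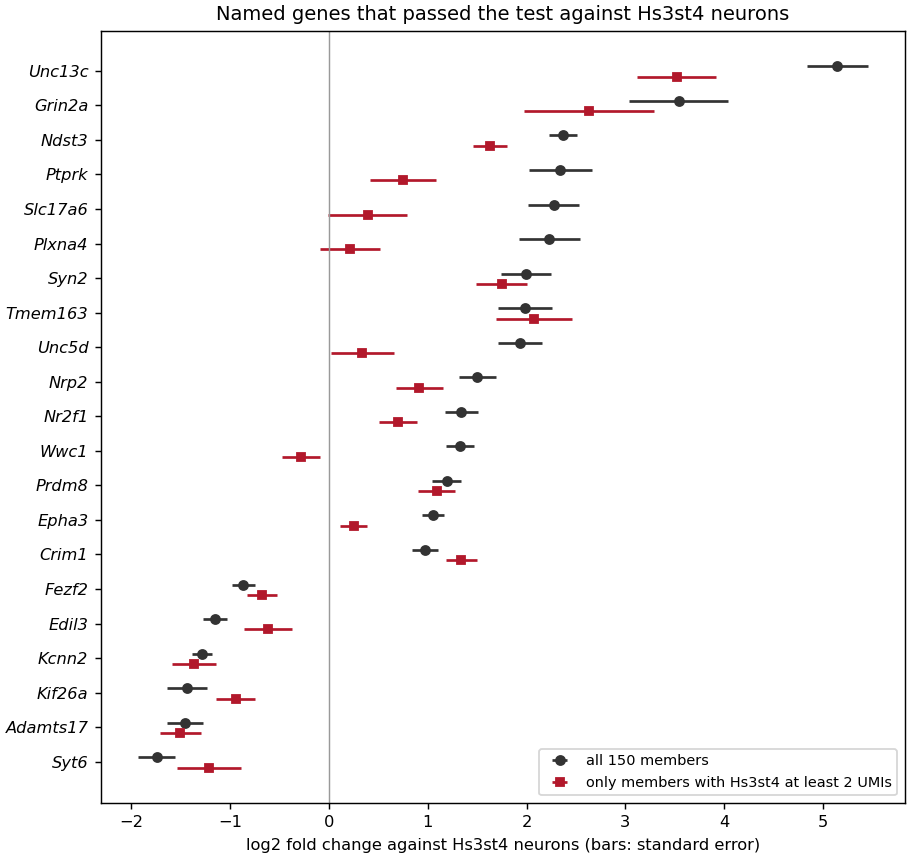
Points give log2 fold changes (horizontal) against *Hs3st4* neurons with bars of 1 standard error, for named genes (vertical) past the adjusted threshold, with all 150 members (dark circles) and with only the members that held at least 2 UMIs of *Hs3st4* (red squares). The red squares of *Slc17a6*, *Plxna4*, *Unc5d* and *Wwc1* lie near 0, while those of *Syn2*, *Tmem163*, *Adamts17* and *Crim1* stay close to the dark circles.

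*Unc13c* came from few cells. It had UMIs in 9 of 71 members (12.7%) and 9 of 79 members (11.4%), with 61 UMIs in each replicate, and 1 cell gave 24.6% and 27.9% of them. Between 1 and 15 UMIs were found per such cell in replicate 1 and between 1 and 17 in replicate 3. The shares were 1.26% and 0.932% in *Hs3st4* neurons, 1.47% and 0.676% in other projection neurons, and 1.06% and 1.06% in radial glia, at median depths of 12781 and 12603 UMIs in the latter. All 9 and 8 of 9 of these members held at least 3 UMIs of *Nr4a2*, 0 and 1 held an *Nxph4* UMI, and 7 and 6 had at most 1 UMI of *Hs3st4*. In the other members the first was so in 44 of 62 and 41 of 70. The second was so in 28 of 62 and 42 of 70, and the third in 27 of 62 and 30 of 70. The choice of members required 3 UMIs of *Nxph4* and *Nr4a2* together, so it partly set the counts of these 2 genes. *Nr4a2* had a median of 9 and 7 UMIs in the members with *Unc13c*, against 4 and 3 in members at 0 for it. *Plxna4* had UMIs in 8 of 9 members with *Unc13c* in each replicate and in 30 of 62 and 36 of 70 other members. Its share was 83.2% and 83.9% in other projection neurons. *Il1rapl2*, a synaptic adhesion gene, had UMIs in 6 and 5 of the members with *Unc13c* and in 2 of 62 and 2 of 70 other members. These cells were chosen by *Unc13c* after its values were seen, and their counts are a description.

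Against other projection neurons, the class without *Hs3st4*, 531 genes were higher in members (3.91%) and 206 lower (1.52%). With the block 1023 were higher (7.53%) and 699 lower (5.15%). Many members (37 of 71 and 43 of 79) carried at least 2 UMIs of *Hs3st4* and this class did not, and that difference entered the comparison. Of 19 subplate markers 12 were higher, with a list median of 2.60 beside -0.01 for all genes. *Gabra5* stood at 26 and 28.5 CPM against 1.71 and 0.616 CPM (log2 fold change 4.33 ± 0.40, adjusted p = 0.00109). *Kcnab1* stood at 171 and 158 against 10.4 and 7.30 CPM (4.18 ± 0.27). *Cdh18*, a cadherin, rose by 4.07 ± 0.63, with 47.6% of its UMIs in replicate 1 from 1 cell, and the protease gene *Prss12* by 3.64 ± 0.39. Of 14 deep layer factors *Tle4*, *Zfpm2*, *Lmo3* and *Tbr1* were higher, *Tbr1* by 1.09 ± 0.13. Of 15 upper layer genes *Epha3*, *Tle1*, *Tle3* and *Cux2* were lower, and with the block 9 were lower and 2 higher.

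Neurotransmitter receptors formed the list with the next highest share of calls in that comparison. Of 33 tested glutamate and GABA receptor and chloride transport genes 15 were higher, with a list median of 1.19. The NMDA receptor subunit gene *Grin3a* stood at 70.6 and 23.3 CPM against 1.93 and 0.616 CPM (4.99 ± 0.66), but it came from 9 and 2 cells, and 1 cell gave 61.3% of its UMIs in replicate 3. The metabotropic receptor genes *Grm5* and *Grm7* rose by 3.29 ± 0.70 and 3.28 ± 0.58. *Gria1* and *Gria4*, subunits of AMPA receptors, rose by 1.39 ± 0.17 and 1.85 ± 0.32. Of 35 synaptic vesicle and release genes 6 were higher and *Slc17a6* was lower (-1.0 ± 0.22). Of 55 guidance and adhesion genes 7 were higher, led by *Unc5c* (3.28 ± 0.69) and *Ephb1* (2.12 ± 0.36), and 8 were lower, among them *Nrp1* (-1.77 ± 0.23) and *Cntn2* (-1.58 ± 0.14). *Unc5c* stood at 413 and 152 CPM against 45.6 and 12.5 CPM, so its level differed between replicates in both classes. Of 18 newborn and migrating neuron genes *Igfbpl1*, *Unc5d* and *Insm1* were lower.

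Among genes with at least 50 CPM in the higher class, those with the largest rises included *Hs3st3b1*, another heparan sulfate sulfotransferase, at 50.2 and 57.8 against 0.829 and 0.616 CPM (5.85 ± 0.24, adjusted p = 5.76e-05). The serotonin receptor gene *Htr1f* stood at 107 and 42.8 against 2.38 and 1.72 CPM (5.04 ± 0.54), and *Dpp10* at 699 and 533 against 12.8 and 25.2 CPM (5.01 ± 0.38). *Nebl*, an actin binding gene, *Caln1*, a neuronal calcium sensor, and *Cobll1* rose by 4.48 ± 0.34, 4.15 ± 0.70 and 3.97 ± 0.45. *Il1rapl2* rose by 4.37 ± 0.79 from 8 and 7 cells, with 35.1% and 39.0% of its UMIs from 1 cell. *Unc13c* rose by 4.13 ± 0.27. Under the same limit the largest falls were those of the neurofilament gene *Nefm* (-2.07 ± 0.21), *Pdzrn3* (-1.77 ± 0.31), *Nrp1*, the sodium channel gene *Scn1a* (-1.73 ± 0.30) and *Lmo1* (-1.72 ± 0.15). *Hs3st3b1* was at 0 and 7.12 CPM in members without *Hs3st4*. Of the members' *Htr1f* UMIs, 111 of 115 and 57 of 57 came from members with *Hs3st4*. For *Dpp10* these were 748 of 753 and 704 of 710. The same part gave fewer of the UMIs of *Il1rapl2* (74 of 148 and 106 of 231) and *Unc13c* (13 of 61 and 10 of 61). *Htr1f* also had UMIs in 113 of 555 and 87 of 644 *Hs3st4* neurons, and *Dpp10* in 114 and 121 of them.

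The remaining lists gave fewer calls against other projection neurons. Of 28 matrix genes 5 were higher and 1 lower, with the proteoglycan gene *Vcan* at 421 and 433 against 81.2 and 77.9 CPM (2.42 ± 0.12). Of 38 secreted and trophic genes 6 were higher and 2 lower (15 and 4 with the block). Among them *Nxph3* stood at 51.1 and 48.1 against 5.25 and 5.54 CPM (3.14 ± 0.14), and the cholecystokinin gene *Cck* at 36.2 and 49.6 against 20.5 and 19.7 CPM (1.10 ± 0.18). Of 38 ion channel genes 6 were higher, led by the calcium channel gene *Cacna1i* (2.54 ± 0.44), and 3 lower, led by *Kcnc2* (-2.66 ± 0.46), both below 40 CPM in either class. Of 13 claustrum and lateral cortex genes *Lmo3* and *Cdh13* were higher and *Cdh8* was lower, and 4 and 2 passed with the block. Of 18 area and pallial patterning factors *Tshz3* and *Tshz2* were higher and *Lmo4*, *Cdh8* and *Bhlhe22* lower. *Tshz3* stood at 541 and 762.1 against 141 and 147 CPM (2.18 ± 0.22). Of 26 cytoskeletal genes 4 were higher and 1 lower (11 and 3 with the block), among them the neuronal intermediate filament gene *Ina* (1.15 ± 0.11). The imprinted noncoding RNAs *Meg3* and *Rian* rose by 2.42 ± 0.19 and 1.69 ± 0.16, out of 10 nuclear noncoding RNAs. *Lmo4* was also the 1 of 9 layer 5 genes past the threshold (-0.78 ± 0.17), and *Jund* the 1 of 12 stress genes (-0.65 ± 0.14). Several genes stand in more than 1 list, *Lmo3* in 3 of them.

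**Figure D5:**
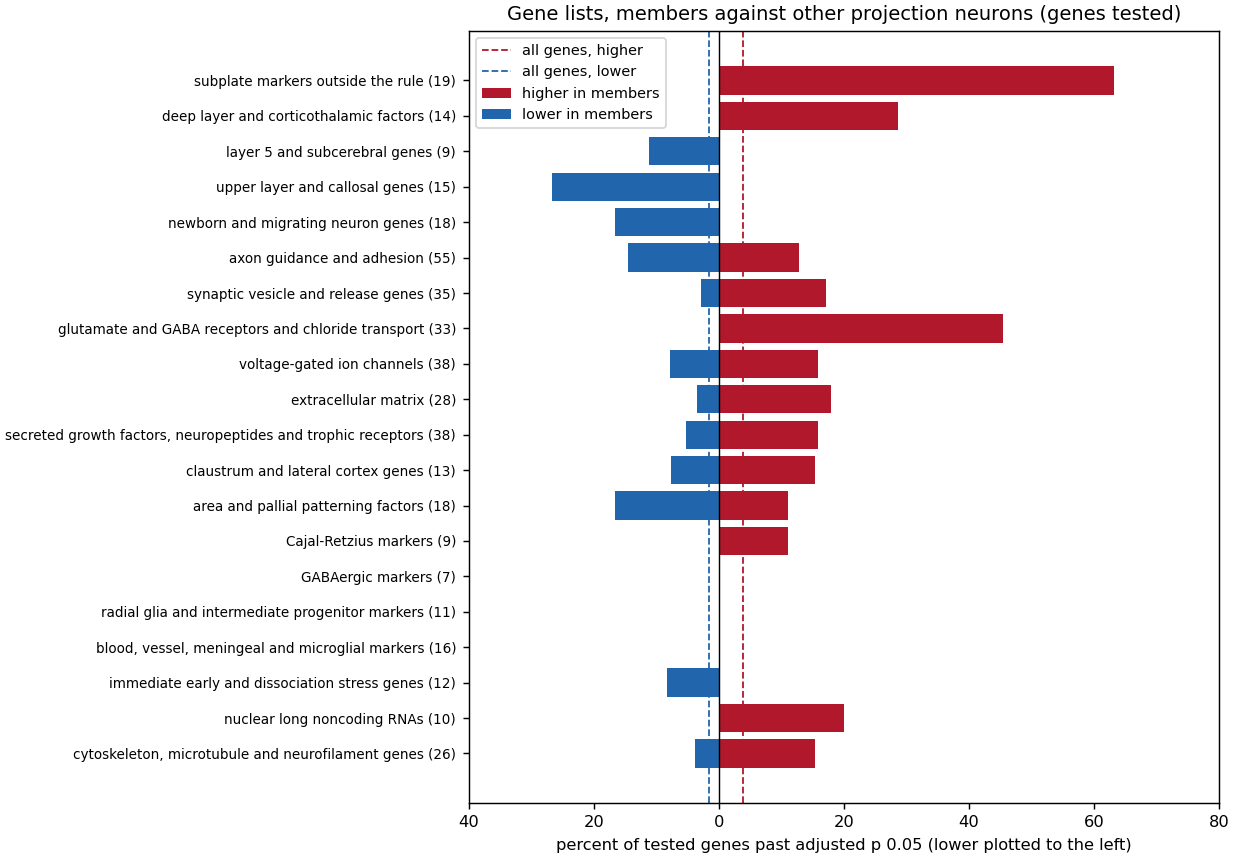
Bars give the percent of tested genes of each list (number tested in brackets) past an adjusted p of 0.05 against other projection neurons, higher in members to the right (red) and lower to the left (blue). Dashed lines mark the same percent over all genes, 3.91 and 1.52. Subplate markers (12 of 19) and receptor genes (15 of 33) reach furthest to the right, and upper layer genes (4 of 15) furthest to the left.

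Most of these calls were lost when only the 34 and 36 members without *Hs3st4* were compared with other projection neurons, also added after the data had been seen. Of 13445 genes 11 were higher (0.0818%) and 3 lower (0.0223%), and with the block 117 (0.87%) and 60 (0.446%). *Unc13c* stood at 103.9 and 90.7 CPM against 3.09 and 2.33 CPM (4.98 ± 0.30, adjusted p = 0.000188). Receptor genes were again among those higher. The kainate receptor gene *Grik3* stood at 216 and 101.4 against 38.3 and 36.4 CPM (2.02 ± 0.28), and *Glra2*, a glycine receptor subunit, at 177 and 178 against 67.8 and 45.3 CPM (1.60 ± 0.22). With the block 10 of 33 receptor genes were higher, against 2 without it. *Lmo3* stood at 255 and 189 against 66.4 and 60.7 CPM (1.75 ± 0.19) and was the 1 of 21 subplate markers past the threshold, with 3 of 21 higher with the block and a list median of 0.78 beside -0.02 for all genes. *Kcnab1*, *Pls3* and *Nxph3* had log2 fold changes of 0.84 ± 0.49, 0.45 ± 0.43 and -0.18 ± 0.36 and did not pass. Other lost calls kept a large fold with a wide error. *Grin3a* had a log2 fold change of 5.11 ± 1.06 (adjusted p = 0.144), *Grm5* of 3.60 ± 0.82 (0.193), *Unc5c* of 3.23 ± 0.87 (0.298) and *Cdh10* of 1.85 ± 0.44 (0.212), and all 4 passed with the block. With this few cells a lost call does not show that a difference was absent. The adhesion genes *Adgrb3*, *Tenm1* and *Nrcam*, the proteoglycan gene *Vcan* and the centrosomal gene *Nin* rose by 1.76 ± 0.17, 1.5 ± 0.16, 1.08 ± 0.14, 1.13 ± 0.15 and 1.18 ± 0.17. *Lmo1*, *Cntn2* and the adhesion gene *Dscam* fell by 1.29, 1.13 and 0.90 on the log2 scale. *Unc13c* and *Lmo3* were higher, and *Lmo1* and *Cntn2* lower, in both comparisons matched for *Hs3st4*, which used separate cells of the same 2 libraries.

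Against newborn neurons 941 genes were higher in members (6.93%) and 603 lower (4.44%), and with the block 1386 (10.2%) and 1182 (8.71%). This comparison used the same member sums as those above. Of 33 receptor genes 18 were higher, and *Gabra2* was lower, with a list median of 1.64. Of 35 synaptic vesicle and release genes 11 were higher, among them *Lrrtm3* (3.48 ± 0.28), and *Slc17a6* was lower (-2.45 ± 0.22). Of 19 subplate markers 11 were higher, with *Nxph3* at 51.1 and 48.1 CPM against 1.86 and 2.09 CPM (4.49 ± 0.18). Of 14 deep layer factors 8 were higher, *Ntsr1*, a corticothalamic receptor gene, by 3.36 ± 0.64. *Grik3* stood at 306 and 267 CPM against 11.2 and 8.54 CPM (4.84 ± 0.19), and *Pdzd2*, *Egfem1* and *Rimbp2* rose by 4.87 ± 0.27, 4.63 ± 0.72 and 4.59 ± 0.25. Of 18 newborn and migrating neuron genes 5 were lower, namely *Sox11*, *Igfbpl1*, *Insm1*, *Sstr2* and *Unc5d*. *Unc5d* stood at 423 and 541 CPM against 3832 and 2616 CPM (-2.74 ± 0.23), the potassium channel gene *Kcnc2* at 7.43 and 4.51 against 85.2 and 89.6 CPM (-3.85 ± 0.43), and *Sema3c*, a secreted semaphorin, at 39.9 and 21.0 against 245 and 218 CPM (-2.94 ± 0.28). *Cdh8* and *Nrp1* fell by 2.70 and 2.55 on the log2 scale.

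Members carried by *Nxph4* could not be tested against those carried by *Nr4a2*, because the sums held 10 and 14 cells of the former, under the minimum of 20. Side by side, *Lmo3* stood at 166 and 173 CPM with *Nxph4* alone, at 431 and 443 CPM with *Nr4a2* alone, and at 569 and 318 CPM with both. Its ranges with *Nxph4* alone and with *Nr4a2* alone did not overlap. Other genes set side by side also did not overlap, in both directions. *Unc5d* stood at 720 and 906 CPM with *Nxph4* alone against 159 and 219 CPM with *Nr4a2* alone. *Nr2f1* stood at 104 and 112 against 206 and 301 CPM. How many of all genes separate in this way was not counted. All 61 *Unc13c* UMIs of replicate 1 and 58 of 61 in replicate 3 came from members with *Nr4a2* alone. *Tbr1* was at 228 and 220 CPM with *Nxph4* alone and at 189.9 and 231 CPM with *Nr4a2* alone, and these ranges overlapped. *Tmem163* went in opposite directions in the replicates, at 145 and 15.4 against 12.5 and 47.3 CPM.

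Markers of other cells and signs of cell quality were measured beside these results. The 13 GABAergic markers outside the gates summed to 53.9 and 36.0 CPM in members and to 13580.5 and 19063 CPM in GABAergic cells, with 4 at 0 in each replicate of the members. The 11 progenitor markers summed to 353 and 783 CPM in members, against 332 and 578 CPM in *Hs3st4* neurons and 7447 and 6065 CPM in radial glia. Within the members they summed to 114 and 507 CPM with *Hs3st4* and 671 and 1162 CPM without it. Other projection neurons held 419 and 679 CPM and newborn neurons 554 and 771 CPM. Members without *Hs3st4* thus lay above both classes in each replicate. The part of progenitor RNA in the differences between the parts, or from other projection neurons, was not tested. Blood, vessel, meningeal and microglial markers (17 genes) summed to 113 and 381 CPM, with 7 at 0. The 12 Cajal-Retzius markers summed to 277 and 324 CPM, of which *Tbr1* itself gave 202 and 229. Stress and immediate early genes summed to 293 and 284 CPM in members and to 286 and 296 CPM in *Hs3st4* neurons. Ribosomal protein genes took 8.59% and 9.14% of the members' UMIs and 8.85% and 8.73% of those of *Hs3st4* neurons. Predicted doublets made up 5 members (7.04%) of replicate 1 and 13 (16.5%) of replicate 3, against 5.59% and 10.1% of *Hs3st4* neurons. They made up 3.74% and 6.42% of other projection neurons and 6.94% and 7.37% of newborn neurons. Without predicted doublets 88 genes passed against *Hs3st4* neurons, 61 of them higher. With only cells of 8000 to 20000 UMIs 92 passed, 65 of them higher. Genes higher against *Hs3st4* neurons spanned a median of 176 kb of the genome (19 genes) and lower ones 70.3 kb (9 genes). The median was 26.1 kb for 12850 tested genes with a known length. Against other projection neurons the medians were 90.7 kb for higher and 49.3 kb for lower genes. The part of gene length in these counts was not tested.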

How the data were processed

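The authors' deposited files held raw UMI counts per gene and cell barcode, made with Cell Ranger 7.0.0 on mm10 per the labels, 1 file per library, and these counts were used with no further normalization. The gene annotation, the treatment of introns and the way cells were called are not given in the sources used here. A barcode was kept if it held between 1500 and 60000 UMIs, fewer than 10% of them mitochondrial. Members and comparison classes were set by raw UMI counts, summed per class and replicate (8 sums), filtered with filterByExpr, scaled by TMM and tested with edgeR 4.0.16 (quasi-likelihood, prior count 2, two-sided, Benjamini-Hochberg, threshold 0.05). All 4 classes shared 1 estimate of the spread. Genes used by the gates were left out of every count of calls, since the choice of cells fixed them. DESeq2 1.42.0 was an alternative. Standard errors of fold changes are the absolute log2 fold change divided by the square root of F. Sums with the same replicate number come from the same library, so the numbers pair them, and their deviations from class means correlated at 0.17 to 0.54 over the 6 pairs of classes. Doublets were predicted with Scrublet (scanpy 1.11.5) and kept in the main results. Neighbours were found on 20 principal components of 2000 variable genes without the gate genes. Members and gene lists were chosen with earlier results of these data known. Named genes were, per comparison, the 10 largest rises and 5 largest falls past the threshold, same in both replicates, with at least 50 CPM in the higher class, without gate genes, mitochondrial genes, sex-linked Xist and Y genes, and unnamed transcripts, plus members of the lists. Simulated counts with known changes were used to check the test. Of genes changed by a log2 fold of 0.5, 1 and 2 between members and *Hs3st4* neurons, 2.9%, 47.6% and 89.9% were recovered over 13320 genes. The simulation gave all genes 1 fixed spread and changed only genes with many UMIs. Its rates therefore need not hold for genes with few UMIs or with most UMIs from few cells. Software was Python 3.11.15 and R 4.3.3. Values of some genes are not reported here.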

Additional observations from a re-analysis of the deposited data

How the results depend on the processing

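Against *Hs3st4* neurons the count of 28 genes rose to 259 with the replicate block, 187 with DESeq2, 559 without a filter on low counts, 88 without predicted doublets, 92 with cells of 8000 to 20000 UMIs only, and 60 with comparison cells free of *Nxph4* and *Nr4a2*. Against other projection neurons the count of 737 became 1722 with the replicate block, 1687 without the filter, 1123 without predicted doublets, and 14 with only members without *Hs3st4*. Against newborn neurons the count of 1544 became 2568 with the replicate block and 2377 without the filter. The other alternatives stayed within 1.5 times each count. The block changed no direction and lost no call among 272 named or listed gene values past the threshold, and DESeq2 lost 1. With at least 5 UMIs of *Nxph4* and *Nr4a2*, 40 of the 272 fell short of the threshold. Leaving out replicate 1 or 3 left no residual degrees of freedom, so no counts could be had. It reversed no fold, but 50 (without replicate 1) and 45 (without replicate 3) of the 272 folds moved by more than the replicate spread taken from the fit. With only members of 1 *Hs3st4* state, folds changed sign for *Wwc1* (-0.28) against *Hs3st4* neurons, and for *Dpp10* (-0.86), *Bmp3* (-0.82), *Cacna2d3* (-1.43), *Cdh13* (-0.034), *Gria3* (-0.17), *Nxph3* (-0.18) and *Wnt7b* (-0.29) against other projection neurons. Those settings left 15 and 83 further values short of the threshold, with fewer cells, and the cause was not tested.

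The members' mean share of kept cells, 1.18% (1.06 to 1.30 over single replicates), was 1.39% with cells of 8000 to 20000 UMIs, 0.499% with at least 5 UMIs of the 2 genes, 2.79% with at least 2, and 0.212% with at least 3 UMIs of *Nxph4* alone. Their share of postmitotic projection neurons, 3.09% (2.83 to 3.35), was 1.30%, 7.32% and 0.558% under the last 3 settings. *Tbr1* had a UMI in 65.8% of members at 5000 UMIs (61.5 to 70.0), 42.7% at 3000 UMIs and 85.8% without thinning. The share of members among members' neighbours, 19.5% (14.8 to 24.2), moved by less than the spread between replicates under each alternative. The alternatives for members carried by *Nxph4* against *Nr4a2* were not run, since their sums held too few cells. With 2 sums per class, changes under a log2 fold of about 1 were often missed.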
